A study of Mus musculus with 136 samples.

Results

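The visceral yolk sac was profiled by RNA sequencing in concepti with 7, 8 or 9 somite pairs at embryonic day (E) 8.5, and diabetic pregnancies were compared with normal ones. Of the 136 libraries of the series, 32 belonged to this comparison, 16 from diabetic and 16 from normal dams. A library was included when it was a yolk sac library whose embryo, sequenced under the same name, was labelled with 7, 8 or 9 somite pairs. The remaining libraries are 34 yolk sacs from concepti with 5 or 6 somite pairs, the embryos of both stages, and 4 technical duplicates.

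All mice were NOD (non-obese diabetic), a strain prone to autoimmune diabetes. Diabetic dams had developed the disease without treatment and were mated after its onset to NOD males with normal glucose. The label of each embryo carries the glucose concentration of its dam at euthanasia. It ranged from 423 to 568 mg/dl (median over libraries 506) for the diabetic group. For the normal group it ranged from 109 to 135 mg/dl (median over libraries 119). A dam enters these medians once for each of its libraries. The diabetic libraries held 4, 9 and 3 concepti with 7, 8 and 9 somite pairs, and the normal libraries 7, 4 and 5. By the sex labels of the yolk sacs, each group had 8 female and 8 male concepti. In the normal pair N28M07E the yolk sac was labelled female and the embryo male. The diabetic concepti came from 6 litters and the normal ones from 7, as read from the dam number in the names. Litter D24M15 gave 7 of the 16 diabetic libraries. Sex was uneven across the diabetic litters. In D24M15 all yolk sacs but D24M15J were labelled male, and among names that start with D28 all but D28M23B were labelled female. Leaving out D24M15, or keeping only the D28 names, therefore also changes the sex ratio of the diabetic group. No dam carried both conditions, so condition and dam cannot be told apart within a litter, and p-values over libraries treat littermates as separate samples.

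The visceral yolk sac has an outer layer of visceral endoderm, an absorptive epithelium with microvilli, endocytic vacuoles and lysosomes, and an inner layer of extraembryonic mesoderm that forms the first blood islands and vessels. Before the chorioallantoic placenta works, it takes up maternal proteins, lipids and glucose, degrades or re-exports them, and secretes serum proteins and lipoproteins toward the embryo. At this stage it is a main route by which maternal nutrients reach the embryo.

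Counts are molecules counted per gene by unique molecular identifier (UMI) from 3′ QuantSeq libraries, and normalized counts are these counts divided by DESeq2 size factors. Total counts ranged from 1033350 to 2958076 in normal and from 1017901 to 3122678 in diabetic libraries (permutation test of the totals, 100000 resamples, p = 0.189). One diabetic library, D28M36C, stood apart. It had the lowest total and a median correlation with the other libraries of 0.831, against at least 0.926 in the other 31, and the ribosomal RNA-like transcript Gm42418 had 212089 CPM in it (counts scaled to the library total), against at most 91104 CPM in any other library. It was kept in the tests. Calls and counts of list members that changed by over 1.5 times without it, or without litter D24M15, are given without it as well. A technical duplicate of the diabetic library D24M15G differed from its original by less than sampling noise and was left out of all groups. Xist and Y-linked transcripts matched the sex on the label of the yolk sac in 32 of 32 libraries. Among male libraries, Xist had 27.1, 36.3, 11.5 and 34.0 CPM in D24M15A, D24M15D, D24M15F and D24M15G, and at most 5.01 CPM in any other. The source of these Xist counts was not tested.

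Markers of the labelled tissue were abundant. All 10 visceral endoderm markers had counts, and their summed normalized counts ranged from 19702 to 50472 in normal and from 20951 to 40372 in diabetic yolk sacs, led by Afp, the fetal serum protein alpha-fetoprotein. The 5 primitive erythroid markers summed to 7246 to 39729 and 12981 to 40866. For the 12 endothelial markers the sums were 997 to 1558 and 729 to 1678. The ranges of both conditions overlapped for each of these cell types. Among tissues outside the visceral yolk sac, 10 neural tube markers summed to at most 123 normalized counts, 8 somite markers to at most 13.1 and 11 leukocyte markers to at most 17.9, with the somite markers Uncx and Msgn1 and the leukocyte marker Cd3e at 0 in all libraries. Of 10 trophoblast markers 8 had counts (Prl2c2 and Psg17 were at 0), and they summed to 63.1 to 257 in normal and 57.2 to 279.6 in diabetic yolk sacs. The 10 cardiac muscle markers reached 501 in a normal and 558 in a diabetic library. The sums of 10 markers of the decidua ranged from 168 to 302 in normal and from 135 to 1025 in diabetic yolk sacs. The decidua list is not specific to that tissue, as its member Hand2 is also among the yolk sac mesoderm markers. Its highest mean was that of Bmp2, at 74.7. The decidual prolactin Prl8a2 had 0 to 34 (median 2.99) in normal and 0 to 658 (median 5.65) in diabetic yolk sacs, and the 6 diabetic libraries above every normal one were all of litter D24M15. The part of other tissues in the results was not tested. In bulk tissue, fewer cells of a type and less RNA per cell cannot be told apart.

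The 32 libraries were used to ask which transcripts differed between diabetic and normal pregnancies, and how large a difference the measurements leave possible for the rest. With edgeR's quasi-likelihood test, 2 of 10317 tested genes rose in diabetic yolk sacs at an adjusted p under 0.05 (0.0194%) and 0 fell (0%). Both genes, mt-Nd6 and mt-Tq, lie on the minus strand of the mitochondrial chromosome. DESeq2's Wald test on the same genes called 17 (0.165%), of which 10 were higher and 7 lower. At an unadjusted p under 0.05, 646 genes (6.26%) were higher and 476 (4.61%) lower in diabetic yolk sacs. The number of calls depended on single litters: without diabetic litter D28M31 edgeR called 28 genes, 17 higher and 11 lower, without D28M36 5, without D28M23 4 and without D24M15 0, and without library D28M36C 3.

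The bounds on change were narrow for most of the transcriptome. Log2 fold changes, here always diabetic over normal, had a median of 0.02 over the tested genes, with the 5th and 95th percentiles at -0.24 and 0.33. For 98.7% of the genes the 95% confidence interval (CI) of the log2 fold change lay within 2-fold in either direction, and for 85.9% within 1.5-fold. The intervals are for single genes and are not widened for the number of genes. How tight the bound was depended on the level of the gene. Of 1639 genes with a mean under 20 normalized counts, 55.9% had an interval within 1.5-fold, compared with 83.2% of 2410 genes between 20 and 50, 93.1% of 2144 genes between 50 and 100, and 96.2% of the 287 genes at 1000 or more. The interval reached past 2-fold for 135 genes, of which 98 reached past it only on the side of higher levels under diabetes, 31 only on the lower side and 6 on both. For 3 genes (mt-Nd6, mt-Tq and Rny3) the whole interval was above a 2-fold increase, and for 0 genes it was below a 2-fold decrease. Of the 3, Rny3 was not called by edgeR. Without litter D24M15 the log2 fold changes of mt-Nd6, mt-Tq and Rny3 were 1.22, 1.36 and 0.68. Genes under the low-count filter carry no such bound: without the filter, 24871 genes had an estimate, and 50.3% of their intervals lay within 2-fold.

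The bounds depend on how much the diabetic group rests on 1 litter. Without litter D24M15, 97% of the intervals lay within 2-fold and 74.5% within 1.5-fold, and with the counts of each litter summed, so that the litter was the sample, 95.6% and 73%. An exact permutation test of litter means (6 diabetic against 7 normal litters, 1716 splits, two-sided) gave 0 genes with an adjusted p under 0.05 and a lowest adjusted p of 0.547, while at an unadjusted p under 0.05 it found 449 genes (4.35%) higher and 374 (3.63%) lower. The smallest p that these splits can give is 0.000583.

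The mitochondrial chromosome is transcribed from both strands. One strand carries most protein genes, both ribosomal RNAs and 14 of the tRNA genes. The other carries mt-Nd6, which encodes a subunit of respiratory complex I, and 8 tRNA genes. On the reference used here, the mouse genome build GRCm38 with GENCODE M21 annotation, the latter group is on the minus strand. The sequences below are those of the minus-strand transcripts that could be tested, printed 5′ to 3′ on the strand of the gene, with the last 120 of the 519 bases of mt-Nd6. They are followed by mt-Tt, the plus-strand tRNA gene next to mt-Tp, for comparison. Because the libraries were primed with oligo(dT), the first of the longest runs of A in the stretch printed is in capitals. None of them holds a run of more than 3.
mt-Nd6: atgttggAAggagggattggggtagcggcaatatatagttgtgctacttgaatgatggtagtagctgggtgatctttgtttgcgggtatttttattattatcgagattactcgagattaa
mt-Tq: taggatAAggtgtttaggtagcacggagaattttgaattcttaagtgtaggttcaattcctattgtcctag
mt-Tc: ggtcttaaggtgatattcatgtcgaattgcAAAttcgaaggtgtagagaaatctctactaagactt
mt-Tp: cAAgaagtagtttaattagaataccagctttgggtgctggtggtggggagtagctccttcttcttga
mt-Ta: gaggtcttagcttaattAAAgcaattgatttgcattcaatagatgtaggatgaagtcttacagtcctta
mt-Te: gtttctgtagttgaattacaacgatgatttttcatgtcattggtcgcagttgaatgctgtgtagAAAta
mt-Tt: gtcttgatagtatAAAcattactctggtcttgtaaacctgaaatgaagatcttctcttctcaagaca

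The gene mt-Nd6 (ENSMUSG00000064368, chrM:13552-14070, minus strand) had 92.9 to 321 normalized counts (median 130.3) in normal and 108 to 1336 (median 436) in diabetic yolk sacs. Of the 16 diabetic libraries, 11 were above all normal libraries and 1 was below the normal median, so that the groups overlapped in the remaining 5. The means were 157 ± 72.9 in normal and 542 ± 364 in diabetic yolk sacs (SD, n = 16 each), and the log2 fold change was 1.79 (95% CI 1.26 to 2.32) with an edgeR adjusted p of 0.000358. For mt-Tq, the glutamine tRNA gene (ENSMUSG00000064343, chrM:3772-3842, minus strand), the values were 33.6 to 159 normalized counts (median 63) in normal and 64.3 to 1173 (median 175) in diabetic yolk sacs. All 16 diabetic libraries were above the normal median and 9 were above every normal library. For mt-Tq the log2 fold change was 2.06 (95% CI 1.41 to 2.71, edgeR adjusted p = 0.000587).

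**Figure D1:**
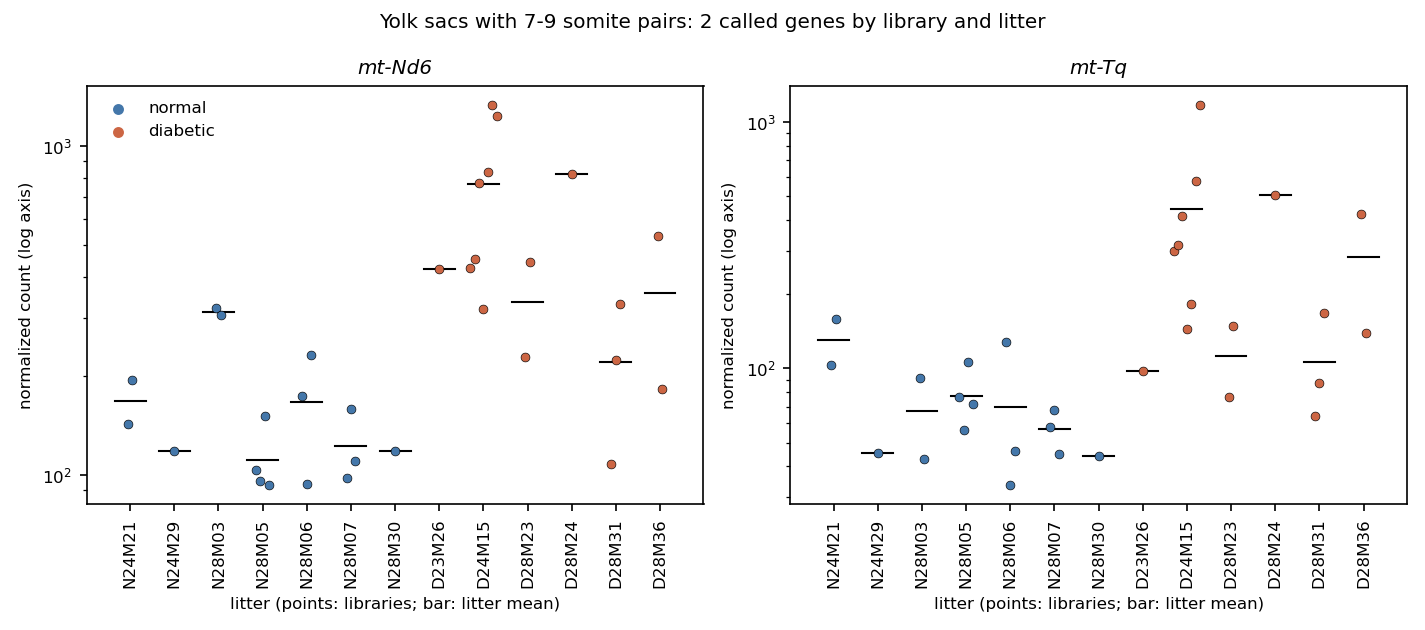
Normalized counts (log axis) of mt-Nd6 and mt-Tq in each of the 32 yolk sac libraries, grouped by litter on the horizontal axis, with normal litters in blue and diabetic litters in orange; bars mark litter means. Of 6 diabetic litters, 5 lie above all normal litters for mt-Nd6 and 3 for mt-Tq, and litter D24M15, with 7 libraries, holds the highest library of each gene.

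Litter means of mt-Nd6 ranged from 110.5 to 313 in normal and from 220.5 to 824 in diabetic litters, with 768 in D24M15, and the exact permutation test of litter means gave p = 0.0035 before adjustment (plot of both genes by litter). Those of mt-Tq ranged from 44.1 to 131 and from 97.3 to 504 (exact permutation p = 0.0035 before adjustment). Neither gene was called without litter D24M15 or with the counts of each litter summed, where the log2 fold changes were 1.59 and 1.89 (edgeR adjusted p = 0.206 for both). In the fit without D24M15 the log2 fold changes were 1.22 for mt-Nd6 and 1.36 for mt-Tq, and the edgeR adjusted p were 0.142 and 0.153. In limma with the litter as a block, mt-Nd6 was called (log2 fold change 1.52, adjusted p = 0.0301) and mt-Tq was not (1.63, adjusted p = 0.0947). With the same block and without library D28M36C, 0 genes were called and the log2 fold change of mt-Nd6 was 1.49. After their first letter the library names carry 23, 24 or 28, a number whose meaning is not given in the sources used here. Among the names with 28, with 8 diabetic and 13 normal libraries, the log2 fold changes were 1.16 and 1.56, and among those with 24, with 7 diabetic libraries of 1 litter and 3 normal libraries, 2.36 and 2.17, and neither gene was called in either set.

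The remaining mitochondrial transcripts were described by strand, a grouping made after the values of mt-Nd6 and mt-Tq were seen. Of 9 minus-strand genes, 8 had a count and 6 passed the low-count filter. The 4 of them other than mt-Nd6 and mt-Tq had log2 fold changes from 0.97 to 1.68, each with an unadjusted p under 0.05. Without litter D24M15 this held for mt-Tp and mt-Te, while mt-Tc and mt-Ta had unadjusted edgeR p of 0.111 and 0.051. Of 28 plus-strand genes, 20 had a count and 14 were tested. Their log2 fold changes ran from -0.29 to 0.58 (median 0.09), with 0 higher and 1 lower, mt-Nd2, at an unadjusted p under 0.05. Besides both called genes, the tested minus-strand genes were mt-Tc for cysteine, mt-Tp for proline, mt-Ta for alanine and mt-Te for glutamate. The values of mt-Tc were 13.7 to 128 normalized counts (median 32) in normal and 17 to 718 (median 69.2) in diabetic yolk sacs, with a log2 fold change of 1.68 (95% CI 0.84 to 2.51, edgeR adjusted p = 0.148), which was 0.56 without litter D24M15. mt-Ta had 1.76 to 40.7 (median 11) in normal and 1.04 to 79.2 (median 22.7) in diabetic yolk sacs, and a log2 fold change of 1.01 (95% CI 0.33 to 1.70, edgeR adjusted p = 0.324), or 0.69 without that litter. The groups overlapped for both genes, with 5 diabetic libraries above all normal ones for mt-Tc and 2 for mt-Ta. On the plus strand, the neighbouring threonine tRNA gene mt-Tt had a log2 fold change of 0.58 (95% CI -0.03 to 1.19, edgeR adjusted p = 0.486), and the complex I subunit transcripts mt-Nd1, mt-Nd4 and mt-Nd5 had -0.22, -0.10 and -0.11.

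**Figure D2:**
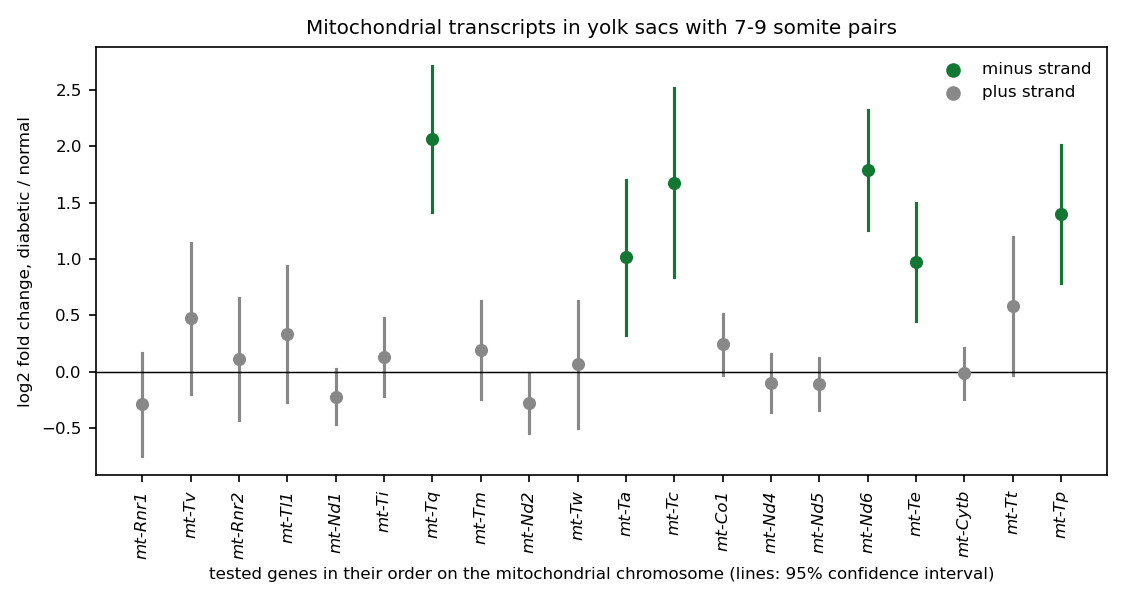
Log2 fold change (diabetic over normal, vertical axis) of the 20 tested mitochondrial transcripts in chromosome order, with 95% confidence intervals, in green for the minus and in grey for the plus strand. The 6 minus-strand genes, mt-Nd6 and mt-Tq included, lie between 0.97 and 2.06 and the 14 plus-strand genes between -0.29 and 0.58.

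As a share of all counts on the mitochondrial chromosome, minus-strand genes made up 0.102% to 0.4% (median 0.184%) in normal and 0.191% to 2.79% (median 0.623%) in diabetic yolk sacs. The mitochondrial share of all counts was 5.53% to 9.14% in normal and 4.56% to 9.05% in diabetic yolk sacs, with 11.6% in D28M36C. The strand setting of the authors' counting is not given in the sources used here, so reads from the opposite strand at these places cannot be told apart from reads of the minus-strand genes. The 3′ end of mt-Nd6 overlaps the end of mt-Nd5 (chrM:11742-13565) on the plus strand, where mt-Nd5 had a log2 fold change of -0.11 (95% CI -0.34 to 0.13). RNA integrity was not among the labels, and its part in these differences was not tested. In the technical duplicate of D24M15G, mt-Nd6 had 157 and mt-Tq 68.6 CPM, against 166 and 74.5 CPM in the original.

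Of the 10 genes with the smallest edgeR p, 8 did not pass edgeR's adjusted threshold, and they are described as values. DESeq2 called 6 of these 8, with adjusted p of 0.0115 for Rny3, 0.0113 for Nup54, 0.0224 for mt-Tp, 0.0115 for Neat1, 0.0141 for Hkdc1 and 0.0113 for Rhob, and did not call Rimklb or Hgsnat. Rny3 (chr6:47781624-47781725) encodes a Y RNA, a small cytoplasmic RNA bound by Ro protein, and had 2.40 to 25.5 normalized counts (median 10.1) in normal and 6.27 to 176 (median 17.7) in diabetic yolk sacs. Of the diabetic libraries, 6 were above every normal one, 5 of them from litter D24M15. The log2 fold change was 1.81 (95% CI 1.04 to 2.58, edgeR adjusted p = 0.072), and it was 0.68 without litter D24M15. The tRNA gene mt-Tp (chrM:15356-15422) had 4.44 to 51.9 (median 18.4) in normal and 16.3 to 172 (median 37.1) in diabetic yolk sacs and a log2 fold change of 1.40 (95% CI 0.78 to 2.01, edgeR adjusted p = 0.072). Neat1 (chr19:5824708-5845478), the long noncoding RNA that builds nuclear paraspeckles, had 10.8 to 53.5 (median 19) in normal and 11.3 to 222 (median 34.3) in diabetic yolk sacs. The largest diabetic values were in D28M24, a litter of 1 library, and in D28M36C, and 6 of the 16 diabetic libraries were above all normal ones. Its log2 fold change was 1.55 (95% CI 0.86 to 2.23, edgeR adjusted p = 0.072).

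Hkdc1 (chr10:62383137-62422491), a hexokinase that phosphorylates glucose, had 59 to 116 normalized counts (median 80.1) in normal and 87.3 to 168 (median 107) in diabetic yolk sacs. Single libraries overlapped, but the mean of each of the 6 diabetic litters (103 to 161) was above that of each of the 7 normal litters (61.9 to 101), with an exact permutation p of 0.00117 before adjustment. Over libraries the log2 fold change was 0.49 (95% CI 0.27 to 0.71, edgeR adjusted p = 0.072), or 0.61 without D24M15. Nup54 (chr5:92415540-92435219), a component of the central channel of the nuclear pore, had 25.3 to 54 normalized counts (median 33.8) in normal and 14.2 to 39.1 (median 21.7) in diabetic yolk sacs. It was the lower-going gene with the smallest p. The means of all 6 diabetic litters (14.4 to 30.5) lay below those of all normal litters (32 to 38.8). The exact permutation p of 0.000583 before adjustment is the smallest the splits can give. Of 10317 genes 9 reached it, and the lowest adjusted p of that test was 0.547. Nup54 was picked by its p over the same libraries. Its log2 fold change was -0.63 (95% CI -0.91 to -0.36, edgeR adjusted p = 0.072). Without the library D28M36C it was -0.67 and passed the test (edgeR adjusted p = 0.035).

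Rimklb (chr6:122447296-122498761), an enzyme that joins glutamate to N-acetylaspartate, also showed a separation of litters, at a low level. Litter means were 7.68 to 11.4 in normal and 11.8 to 23.4 in diabetic pregnancies (exact permutation p = 0.000583 before adjustment). Its log2 fold change was 0.89 (95% CI 0.47 to 1.31, edgeR adjusted p = 0.131), and 0.51 without D24M15. The small GTPase gene Rhob (chr12:8497661-8500009) had 13.6 to 75.7 (median 36.9) in normal and 43.2 to 173 (median 63.8) in diabetic yolk sacs. All 16 diabetic libraries were above the normal median, 5 of them above every normal library. Its log2 fold change was 0.89 (95% CI 0.49 to 1.28, edgeR adjusted p = 0.072). Hgsnat (chr8:25944453-25976753), a lysosomal acetyltransferase that takes part in heparan sulfate breakdown, had 12.3 to 26.6 (median 20.2) in normal and 20.2 to 38.9 (median 29.4) in diabetic yolk sacs, with 10 diabetic libraries above every normal one and a log2 fold change of 0.52 (95% CI 0.27 to 0.76, edgeR adjusted p = 0.131).

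**Figure D3:**
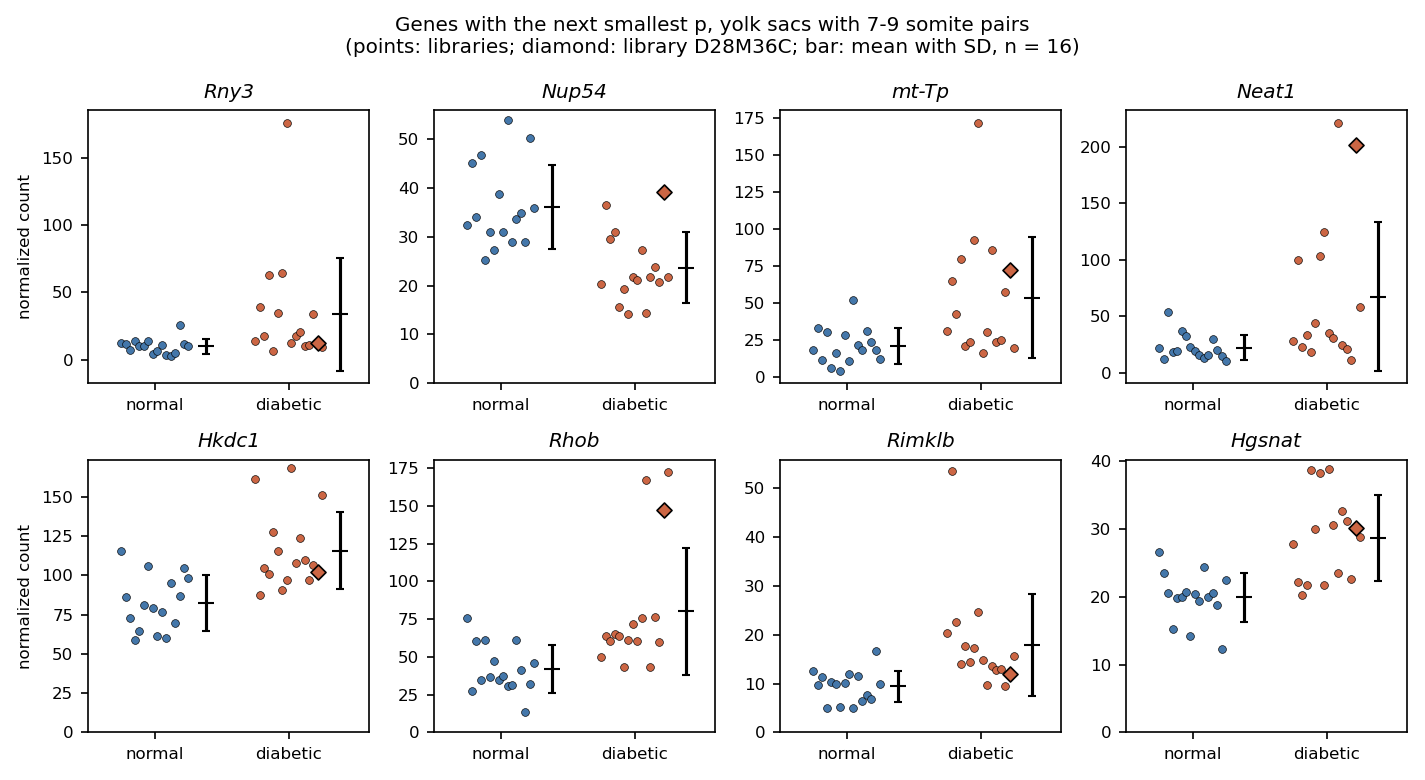
Normalized counts of the 8 genes that follow mt-Nd6 and mt-Tq in order of p, in 16 normal (blue) and 16 diabetic (orange) yolk sacs; each point is a library, the diamond is library D28M36C, and bars give the mean with SD. Diabetic means are higher than normal means for 7 genes and lower for Nup54, and single libraries of the groups overlap for all 8.

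None of the 10 genes with the highest mean count was called by edgeR. Of these, 6 are mitochondrial ribosomal RNAs or messenger RNAs of the plus strand, and the others are Gm42418, the imprinted noncoding RNA H19, the chaperone Hsp90ab1 and the cytoskeletal actin Actb. H19 was 17362 ± 3823 in normal and 17341 ± 4169.8 in diabetic yolk sacs (SD, n = 16 each), with a 95% CI of the log2 fold change from -0.23 to 0.24. Actb differed by 0.13 (95% CI -0.10 to 0.37) and Hsp90ab1 by 0.23 (95% CI -0.06 to 0.52) on the log2 scale. The values of 3 ribosomal RNA transcripts depended on library D28M36C. Gm42418 had a log2 fold change of -0.03 with and -0.61 without it, mt-Rnr2 of 0.11 and -0.43, and mt-Rnr1 of -0.29 and -0.57. DESeq2, with D28M36C kept, called Gm42418 lower (log2 fold change -0.58, adjusted p = 0.022). Of the 16 diabetic libraries, 14 were below the normal median of Gm42418.

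Pathways were described over 51 lists that together held 1578 genes. Of these, 1092 were tested and 1, mt-Nd6, was called, so that 1 list had a called member. The lists of somite and leukocyte markers had no tested member. The other lists are given by how many of their tested members were higher or lower at an unadjusted p under 0.05, to be read against 6.26% and 4.61% over all genes, and by their median log2 fold change, to be read against 0.02. Without D28M36C the shares over all genes were 6.17% higher and 6.12% lower, and without litter D24M15 5.62% and 2.85%. For each gene named from the lists, the ranges of the groups overlapped. Values given as a mean ± SD are normalized counts over n = 16 libraries in each group.

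**Figure D4:**
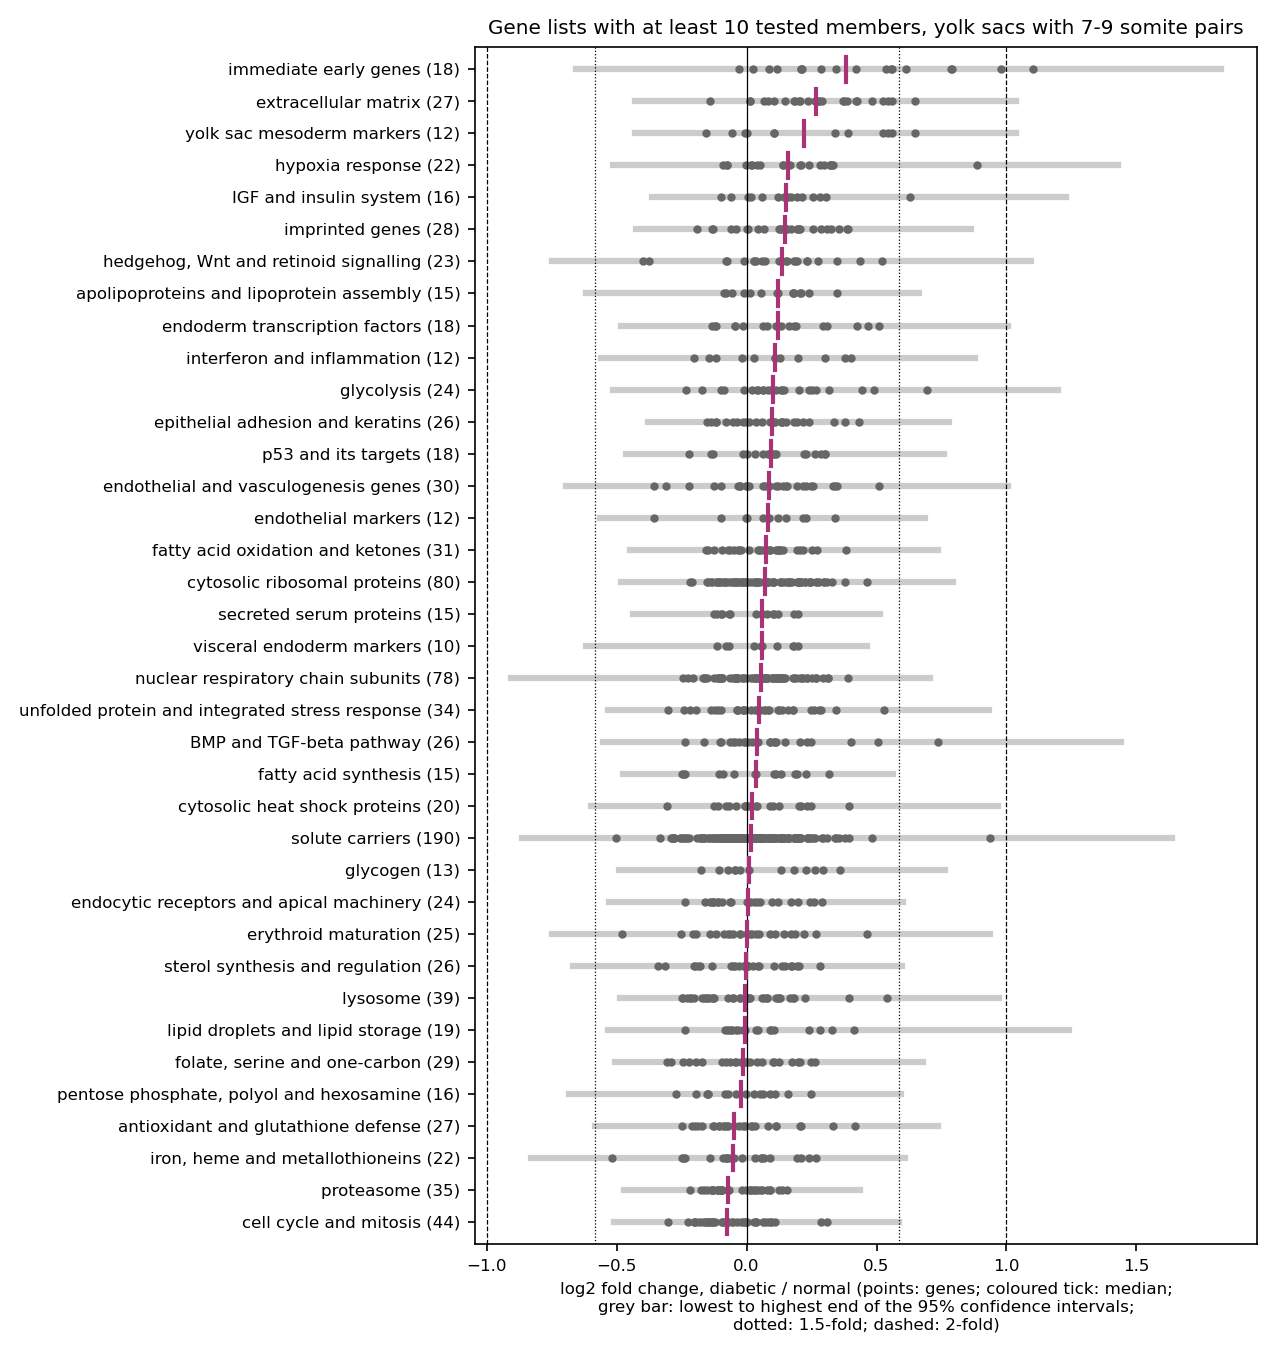
Log2 fold change (diabetic over normal, horizontal axis) of the tested members of the 37 gene lists with at least 10 of them; points are genes, the coloured tick is the list median, the grey bar spans the lowest to highest end of the members' 95% confidence intervals, and dotted and dashed lines mark 1.5-fold and 2-fold. Medians run from -0.08 for cell cycle genes to 0.38 for immediate early genes.

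Glucose enters the yolk sac through facilitative transporters of the Slc2a family, and fatty acids with the help of Slc27a proteins and Cd36. Of 8 tested transporter genes, 0 were higher (1 without D24M15) and 0 lower (list median -0.13). Slc2a3, the transporter with the highest count, was 7597 ± 685 in normal and 6860.4 ± 1233 in diabetic yolk sacs, with a log2 fold change of -0.15 (95% CI -0.33 to 0.04), and Slc2a1 was 2511 ± 342 in normal and 2601 ± 496 in diabetic, with 0.05 (95% CI -0.15 to 0.25). Slc2a2, the low-affinity transporter of absorptive epithelia and liver, gave -0.12 (95% CI -0.30 to 0.07), and the fatty acid transporter Slc27a4 0.23 (95% CI -0.05 to 0.51). For these 4 genes the intervals over libraries lay within 1.5-fold in either direction, with littermates counted as separate samples. With 1 litter left out at a time, the log2 fold change of Slc27a4 ran from 0.11 to 0.39. Among 7 tested glucose-responsive genes 1 was higher, the arrestin Arrdc4, with 12.9 ± 4.35 in normal and 17 ± 4.04 in diabetic and a log2 fold change of 0.40 (95% CI 0.09 to 0.72, edgeR adjusted p = 0.365). The related Txnip, an inhibitor of glucose uptake, had 6.95 to 174 (median 51.3) in normal and 12 to 144 (median 77.5) in diabetic yolk sacs and a log2 fold change of 0.35 (95% CI -0.10 to 0.81, edgeR adjusted p = 0.587).

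In glycolysis, 4 of 24 tested genes were higher and 0 lower (median 0.10). The 4 were Hkdc1, the phosphofructokinase subunit Pfkl, the glyceraldehyde-phosphate dehydrogenase Gapdh and Pfkfb3, which makes the activator fructose 2,6-bisphosphate. Pfkfb3 had 16.8 to 58 (median 34.2) in normal and 17.8 to 184 (median 37.6) in diabetic yolk sacs, with 5 diabetic libraries above all normal ones and a log2 fold change of 0.69 (95% CI 0.19 to 1.20, edgeR adjusted p = 0.34). Ldha, lactate dehydrogenase A, differed by 0.02 (95% CI -0.15 to 0.19) and the pyruvate kinase Pkm by 0.06 (95% CI -0.14 to 0.26). The pentose phosphate, polyol and hexosamine list of 16 genes and the glycogen list of 13 had 0 higher and 0 lower members, with medians of -0.02 and 0.01. Without D28M36C, 1 gene of each of these lists was higher and 1 glycolytic gene lower, and without D24M15 2 glycogen genes were higher.

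Sterol synthesis had 1 higher and 4 lower members among 26 (median -0.0024). Hsd17b7, which acts in the demethylation steps after lanosterol, had 143 to 238 (median 185) in normal and 66.2 to 203 (median 145) in diabetic yolk sacs. All but 1 of the diabetic libraries were below the normal median. Its log2 fold change was -0.34 (95% CI -0.54 to -0.14, edgeR adjusted p = 0.259), that of Nsdhl, which acts at the same steps, -0.31 (95% CI -0.55 to -0.07, edgeR adjusted p = 0.365), that of the early enzyme Hmgcs1 -0.20 (95% CI -0.38 to -0.02) and that of the sterol carrier Stard4 -0.19 (95% CI -0.34 to -0.03). Without litter D24M15, 1 was higher and 2 lower. In fatty acid synthesis 1 of 15 was higher, the rate-limiting carboxylase Acaca at 0.32 (95% CI 0.07 to 0.56), and 3 were lower, among them the elongase Elovl5 at -0.24 (95% CI -0.47 to -0.01), and without D24M15 0 were higher and 1 lower. In fatty acid oxidation 2 of 31 were higher, Acot2 and Acadvl, and 0 lower, against 4 higher without D24M15 and 1 lower without D28M36C. Lipid droplet genes had 0 of 19 in either direction, or 1 higher without either D24M15 or D28M36C, with the droplet coat gene Plin2 at -0.08 (95% CI -0.35 to 0.19).

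Lipoprotein assembly and serum protein secretion are the export functions of the visceral endoderm. Of 15 apolipoprotein and lipoprotein assembly genes, 2 were higher and 0 lower (median 0.12), and without D28M36C 2 and 1. Those were the cholesterol exporter Abca1, with a log2 fold change of 0.35 (95% CI 0.03 to 0.66, edgeR adjusted p = 0.408), and the lipoprotein receptor Scarb1, with 0.24 (95% CI 0.02 to 0.46, edgeR adjusted p = 0.42). Apoe was 4615 ± 639 in normal and 5020.5 ± 894 in diabetic yolk sacs, a log2 fold change of 0.12 (95% CI -0.06 to 0.30), and Apoa1 differed by 0.05 (95% CI -0.21 to 0.32). Apob, the structural protein of very low density lipoproteins, had a wider interval, -0.08 (95% CI -0.62 to 0.46). Its count was 8259 in D28M36C and at most 1689 in the other diabetic libraries, and the log2 fold change without D28M36C was -0.58. The list of 15 secreted serum protein genes had 1 higher and 0 lower members. The higher one was Amn, an anchor of the cubilin receptor and not itself a serum protein, at 0.20 (95% CI 0.04 to 0.36). Afp had 3411 to 12768 (median 7469) in normal and 4909.7 to 10665 (median 6943) in diabetic yolk sacs and a log2 fold change of -0.12 (95% CI -0.40 to 0.17). Rbp4, the plasma retinol carrier, and Ttr, the thyroxine carrier, differed by 0.06 (95% CI -0.20 to 0.32) and -0.07 (95% CI -0.36 to 0.22).

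In uptake and degradation, 2 of 24 endocytic genes were higher and 0 lower, and the list median was 0.0039. Without D28M36C the counts were 1 and 1. The clathrin heavy chain Cltc, the adaptor Dab2 and the microvillus linker Ezr, the 3 with the highest counts, had intervals of the log2 fold change from -0.16 to 0.24, from -0.28 to 0.03 and from -0.13 to 0.13. Lysosomal genes had 2 higher and 3 lower members among 39 (median -0.01). The sphingolipid activator Psap was 121 ± 39.8 in normal and 176 ± 103 in diabetic yolk sacs, with a log2 fold change of 0.54 (95% CI 0.11 to 0.97, edgeR adjusted p = 0.368). The glycogen-degrading glucosidase Gaa was higher with 0.39 (95% CI 0.13 to 0.66, edgeR adjusted p = 0.308), and the peptidase Tpp1 was lower with -0.25 (95% CI -0.42 to -0.08, edgeR adjusted p = 0.334). Without litter D24M15, 7 lysosomal genes were higher and 1 lower, and without D28M36C 4 and 2. The protease Ctsl and the membrane protein Cd63, with the highest counts of the list, had intervals of -0.49 to 0.06 and -0.47 to 0.06.

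Among 18 transcription factors of the endoderm, 4 were higher and 0 lower (median 0.12): Gata6, Tcf7l2, Klf5 and Sox7. Sox7, an early endoderm and endothelial factor, had the largest log2 fold change, 0.51 (95% CI 0.01 to 1.01, edgeR adjusted p = 0.445), at a mean of 13.2 ± 7.21 in normal and 18.6 ± 9.63 in diabetic yolk sacs. Hnf4a, which drives lipoprotein and serum protein genes in this tissue, differed by 0.18 (95% CI -0.02 to 0.39) and Foxa2 by 0.06 (95% CI -0.12 to 0.25). Without litter D24M15, 1 of the list was higher.

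The unfolded protein and integrated stress response list had 3 higher and 2 lower genes among 34 (median 0.05). Hspa5, the main chaperone of the endoplasmic reticulum, was 6306 ± 1194 in normal and 5795 ± 1238 in diabetic yolk sacs, with a log2 fold change of -0.12 (95% CI -0.33 to 0.09). Ppp1r15a, which reverses the translational block of this response, had 4.41 to 37.5 (median 18.3) in normal and 17.4 to 53.2 (median 26.5) in diabetic yolk sacs and a log2 fold change of 0.53 (95% CI 0.13 to 0.93, edgeR adjusted p = 0.364). The disulfide isomerase Pdia6 was lower, with -0.30 (95% CI -0.53 to -0.07, edgeR adjusted p = 0.364). Without D24M15, 4 genes of this list were higher and 1 lower. Heat shock proteins had 0 higher and 1 lower of 20, 2 and 1 without D28M36C, and 0 and 3 without D24M15. In antioxidant and glutathione defense, 3 of 27 were higher and 1, the metallothionein Mt1, was lower with -0.25 (95% CI -0.47 to -0.02). The glutathione peroxidases Gpx4 and Gpx3 were higher, with 0.42 (95% CI 0.10 to 0.74) and 0.33 (95% CI 0.02 to 0.64), and Gpx3 was 0.13 without D28M36C. The antioxidant counts were 1 higher and 1 lower without D28M36C, and 1 and 0 without D24M15. Superoxide dismutase Sod1 differed by -0.13 (95% CI -0.37 to 0.11). Of 18 p53 targets 1 was higher and 0 lower (2 and 1 without D24M15), and of 12 interferon and inflammation genes 0 were higher and 0 lower.

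Hypoxia-responsive genes had 5 higher and 0 lower members among 22 (median 0.16). Adm, which encodes the vasodilator peptide adrenomedullin, had 2.65 to 17.5 (median 11) in normal and 7.14 to 58.6 (median 16) in diabetic yolk sacs. Of the diabetic libraries, 6 were above all normal ones and 2 below the normal median. For Adm the log2 fold change was 0.89 (95% CI 0.35 to 1.43, edgeR adjusted p = 0.26). The prolyl hydroxylases P4ha2 and Egln1 had 0.33 and 0.33, and the oxygen-regulated factor subunit Hif1a -0.002 (95% CI -0.15 to 0.15). The count of higher genes was 2 without litter D24M15, and 5 without D28M36C. In the iron and heme list, 1 of 22 was higher and 3 lower, 2 and 3 without D28M36C, and 0 and 1 without D24M15. Alas1, the housekeeping first enzyme of heme synthesis, was lower, with 25.8 ± 7.22 in normal and 18 ± 5.12 in diabetic yolk sacs and a log2 fold change of -0.52 (95% CI -0.83 to -0.21, edgeR adjusted p = 0.26), and the ferritin heavy chain Fth1 was higher, with 0.24 (95% CI 0.03 to 0.44).

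Of 25 erythroid maturation genes, 0 were higher (1 without D24M15) and 1 lower. The embryonic globin Hbb-bh1 varied widely among libraries, from 3615 to 19958 (median 8364) in normal and 3437 to 22417 (median 8034) in diabetic yolk sacs, and had a log2 fold change of -0.03 (95% CI -0.47 to 0.42). The lower gene was Lmo2, a cofactor required for blood formation, with 68.7 to 141 (median 87.2) in normal and 31.2 to 102 (median 68.3) in diabetic yolk sacs and a log2 fold change of -0.48 (95% CI -0.73 to -0.22, edgeR adjusted p = 0.191), and its litter means gave an exact permutation p of 0.00816 before adjustment. Of 30 endothelial and vasculogenesis genes, 1 was higher, Sox7, and 1 lower. The latter was Pecam1, an adhesion molecule of endothelial junctions, with 46.7 to 88.5 (median 60.2) in normal and 37.5 to 63.2 (median 47.7) in diabetic yolk sacs and a log2 fold change of -0.36 (95% CI -0.56 to -0.15, edgeR adjusted p = 0.236). The 4 adult globin genes summed to 239 to 1890.3 normalized counts in normal and 553 to 2125 in diabetic yolk sacs. The receptors Kdr and Flt1 differed by 0.0017 (95% CI -0.29 to 0.29) and 0.34 (95% CI -0.01 to 0.69).

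Extracellular matrix genes had the largest share of higher members among lists with at least 10 tested genes, 14 of 27, with 0 lower and a median log2 fold change of 0.27. Fibrillar collagens of the mesoderm layer were among them. Col1a1 had 143 to 544 (median 292) in normal and 219 to 929 (median 410.1) in diabetic yolk sacs. Above all normal libraries were 5 diabetic ones, and 2 were below the normal median. The log2 fold change was 0.65 (95% CI 0.26 to 1.04, edgeR adjusted p = 0.26), with an exact permutation p of 0.0198 over litter means before adjustment. Col5a2, a minor fibrillar collagen, had 45.2 to 102 (median 64.6) in normal and 75.2 to 149 (median 93.4) in diabetic yolk sacs, with all 16 diabetic libraries above the normal median and a log2 fold change of 0.48 (95% CI 0.25 to 0.72, edgeR adjusted p = 0.131). It was called by DESeq2 (adjusted p = 0.0332). The fibrillar Col3a1, the matricellular Postn and the microfibril protein Fbn2 had log2 fold changes of 0.56, 0.54 and 0.42.

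Basement membrane components made up most of the remaining higher members: Col4a1 at 0.26 (95% CI 0.02 to 0.50), Col4a2 at 0.27 (95% CI 0.03 to 0.51), the laminin chains Lama1, Lama5 and Lamb2 at 0.42, 0.28 and 0.28, and the proteoglycans Hspg2 and Agrn at 0.39 and 0.23. In contrast, Sparc and Fn1, the list members with the highest counts, differed by 0.10 (95% CI -0.09 to 0.30) and 0.01 (95% CI -0.26 to 0.28). The count of higher matrix genes was 11 without D28M36C (median 0.23), 6 without litter D24M15 (median 0.22) and 6 when litter means were permuted.

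The matrix list shares genes with 2 marker lists. Of 12 yolk sac mesoderm markers 6 were higher (median 0.22), 4 of them matrix genes and the others Ahnak and Hand2. The summed level of the 12 markers ranged from 2340.3 to 3577 in normal and from 2438 to 4628 in diabetic yolk sacs. Mesoderm markers outside the matrix with higher counts were Pmp22, at -0.15 (95% CI -0.43 to 0.12), and Vim, at 0.11 (95% CI -0.09 to 0.30). Of 8 tested markers of the parietal endoderm, a separate layer that lies against the maternal tissue, 4 were higher (median 0.26), 3 of them basement membrane genes and the fourth the plasminogen activator Plat, and without D24M15 there were 0. Over all 10 markers of that list, 2 of them not tested, the sum was 2768 to 3975 in normal and 2738 to 6806 in diabetic yolk sacs. The part of different amounts of mesoderm or parietal endoderm in the matrix values was not tested.

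Epithelial adhesion and keratin genes had 5 higher and 0 lower members among 26 (median 0.10). The keratins Krt18 and Krt19 had log2 fold changes of 0.34 (95% CI 0.05 to 0.62, edgeR adjusted p = 0.388) and 0.43 (95% CI 0.09 to 0.78, edgeR adjusted p = 0.368), and the desmosomal Dsp of 0.38 (95% CI 0.09 to 0.67, edgeR adjusted p = 0.364). Without library D28M36C, Krt18 was at 0.19 and Dsp at 0.20. The adherens junction genes Cdh1 and Ctnnb1 differed by 0.04 (95% CI -0.23 to 0.30) and -0.15 (95% CI -0.33 to 0.02).

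In the BMP and TGF-beta pathway, 3 of 26 were higher, the ligand Tgfb2 and the receptors Acvr2b and Tgfbr2, and 1 was lower, the target Id1 with -0.24 (95% CI -0.47 to -0.0025). Without litter D24M15, and by litter means, 0 were higher and 0 lower. Tgfb2 had 2.58 to 38.7 (median 8.36) in normal and 3.01 to 56.1 (median 19.5) in diabetic yolk sacs and a log2 fold change of 0.74 (95% CI 0.03 to 1.44, edgeR adjusted p = 0.433). Hedgehog, Wnt and retinoid genes had 3 higher and 2 lower of 23, among the latter Cyp26a1, which degrades retinoic acid, with 69.5 to 255 (median 140.5) in normal and 24.1 to 169 (median 121) in diabetic yolk sacs and a log2 fold change of -0.40 (95% CI -0.75 to -0.05, edgeR adjusted p = 0.405). The counts were 1 and 1 without D28M36C, and 4 and 1 without D24M15. The hedgehog receptor and target Ptch1 differed by 0.07 (95% CI -0.17 to 0.31). In the IGF and insulin system 2 of 16 were higher, the binding proteins Igfbp1 and Igfbp5, and Igf2, the growth factor with the highest count, differed by 0.15 (95% CI -0.07 to 0.36). Of 28 imprinted genes 4 were higher (Ndn, Plagl1, Meg3 and Cdkn1c) and 1 lower (Snrpn), and without D28M36C 2 were higher and 0 lower. The noncoding RNA Meg3 had a log2 fold change of 0.39 (95% CI 0.06 to 0.71), and 0.19 without D28M36C.

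Immediate early genes, which are transcribed within minutes of a stimulus, had the highest list median, 0.38, with 8 of 18 higher and 0 lower. Jun, a subunit of the AP-1 factor, had 19.97 to 145 (median 29.98) in normal and 31.2 to 322 (median 66.9) in diabetic yolk sacs. All 16 diabetic libraries were above the normal median, and 4 exceeded the highest normal library, while litter means ranged from 22.1 to 133 in normal and from 32 to 314 in diabetic litters. For Jun the log2 fold change was 1.10 (95% CI 0.37 to 1.83, edgeR adjusted p = 0.301) and its exact permutation p over litter means 0.207. Cyr61, a secreted matricellular protein, and the zinc finger factor Egr1 had log2 fold changes of 0.98 (95% CI 0.28 to 1.68, edgeR adjusted p = 0.34) and 0.79 (95% CI 0.04 to 1.54, edgeR adjusted p = 0.431). The phosphatase Dusp1, which switches off MAP kinases, had 13.9 to 70.8 (median 27.3) in normal and 21.1 to 203 (median 37.5) in diabetic yolk sacs and a log2 fold change of 0.79 (95% CI 0.26 to 1.31, edgeR adjusted p = 0.308). Litter D28M24, with 1 library, held the highest diabetic litter mean for Jun, Egr1 and Dusp1. The count of higher genes was 8 without D28M36C and 8 without D24M15, but 1 gene of the list was higher when litter means were permuted. The time from death of the dam to freezing of the tissue was not among the labels, and its part was not tested.

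In the cell cycle list, 2 of 44 were higher and 4 lower, with the lowest median of the lists with at least 10 tested genes, -0.08. Top2a, the topoisomerase of dividing cells, was 2369.9 ± 561 in normal and 1922 ± 355 in diabetic yolk sacs, with a log2 fold change of -0.30 (95% CI -0.51 to -0.09, edgeR adjusted p = 0.335). Birc5 and Cdk1, with high counts, differed by -0.15 (95% CI -0.36 to 0.07) and -0.07 (95% CI -0.38 to 0.24), and Cdkn1c, an inhibitor of the cycle, was higher with 0.31 (95% CI 0.03 to 0.59). By litter means, 7 cell cycle genes were lower and 1 higher, as also without D28M36C, and without D24M15 5 were lower and 1 higher. Of 29 folate, serine and one-carbon genes 0 were higher and 2 lower, both enzymes of purine synthesis (1 and 3 without D24M15). Atic, which closes the purine ring, had 411 to 679 (median 571) in normal and 383 to 504 (median 444) in diabetic yolk sacs. Its log2 fold change was -0.30 (95% CI -0.45 to -0.16, edgeR adjusted p = 0.132). The exact permutation p of Atic over litter means was 0.00641 before adjustment, and DESeq2 called Atic (adjusted p = 0.0115). Ppat, the first committed enzyme, had -0.29 (95% CI -0.49 to -0.10, edgeR adjusted p = 0.308).

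Of 61 replication-dependent histone genes with a count, 8 were tested. Most transcripts of these genes end without a poly(A) tail. Lower were 3 of them, Hist2h2ac, Hist1h1e and Hist1h4n, and 0 were higher. Without litter D24M15 the direction was mixed, with 3 histone genes higher and 2 lower, as also among names with 28. Hist2h2ac had 5.54 to 26.6 (median 12.8) in normal and 3.60 to 21.1 (median 5.75) in diabetic yolk sacs, with 14 of 16 diabetic libraries below the normal median and a log2 fold change of -0.89 (95% CI -1.35 to -0.43, edgeR adjusted p = 0.172).

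For the proteasome, 0 of 35 subunits were higher and 0 lower (1 and 2 without D28M36C), the median was -0.07, and 100% of the intervals lay within 1.5-fold. For cytosolic ribosomal proteins, 1 of 80 was higher, Rplp2 with 0.47 (95% CI 0.18 to 0.75, edgeR adjusted p = 0.264), and 85% of the intervals lay within 1.5-fold, while 7 were higher without D28M36C, and 2 were higher and 1 lower without D24M15. Nuclear-encoded subunits of the respiratory chain had 6 higher and 1 lower among 78 (median 0.06), and 0 lower without either D24M15 or D28M36C, where 5 and 9 were higher. Uqcrc1, a core subunit of complex III, had 163 to 330.1 (median 223) in normal and 225 to 408 (median 290.2) in diabetic yolk sacs, with the mean of each diabetic litter above that of each normal litter. For Uqcrc1 the log2 fold change was 0.39 (95% CI 0.20 to 0.58, edgeR adjusted p = 0.148), its exact permutation p over litter means 0.00117 before adjustment, and DESeq2 called it (adjusted p = 0.0224). The ATP synthase subunits Atp5a1 and Atp5b differed by 0.10 (95% CI -0.05 to 0.24) and 0.07 (95% CI -0.12 to 0.26).

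Solute carriers, the family that holds most nutrient transporters, were tested for 190 of 355 members with a count. Of these, 9 were higher and 6 lower (8 and 2 without D24M15), with a median of 0.02, and 86.3% of the intervals lay within 1.5-fold. Slc38a2, a carrier of small neutral amino acids, had 306 to 508 (median 397) in normal and 271 to 999 (median 554) in diabetic yolk sacs and a log2 fold change of 0.48 (95% CI 0.21 to 0.75, edgeR adjusted p = 0.236). Slc22a2, an organic cation carrier, had 29.8 ± 11.5 in normal and 65.5 ± 107 in diabetic yolk sacs and a log2 fold change of 0.94 (95% CI 0.24 to 1.64), which was 0.40 without D28M36C, where it reached 460.5. The choline transporter-like gene Slc44a5 was lower, with -0.50 (95% CI -0.86 to -0.14, edgeR adjusted p = 0.34). The monocarboxylate carrier Slc16a1, which exports lactate, differed by -0.10 (95% CI -0.33 to 0.13).

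The same contrast was available in yolk sacs with 5 or 6 somite pairs and in the embryos of the concepti described here. The younger yolk sacs gave 0 calls with edgeR among 10250 tested genes (0%), with 347 higher and 516 lower at an unadjusted p under 0.05. There mt-Nd6 had a log2 fold change of 0.83 ± 0.32 (SE) and mt-Tq of 1.38 ± 0.41. The effect of diabetes on each gene was compared between the stages by an interaction term in edgeR over both sets. The interaction was called for 0 of 10857 genes (0%), 634 genes had an unadjusted p under 0.05, and DESeq2 and the other alternatives also called 0. For 92.3% of genes the interval of the difference between stages lay within 2-fold. Nup54 was at 0.02 ± 0.15 and Hkdc1 at 0.11 ± 0.14 in the younger yolk sacs.

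Embryos with 7 to 9 somite pairs gave more calls than the yolk sacs around them. Of 10628 genes, 553 rose (5.2%) and 413 fell (3.89%) in embryos from diabetic pregnancies. These calls are over libraries, and litter D24M15 gave 7 of the 16 diabetic embryos. Neither the embryo calls nor the interaction of tissue and diabetes below were tested with the litter as the unit or without D24M15. Of the 966 genes called in embryos, 854 were also tested in the yolk sacs, where 1 was called. There 93 of the 854 had an unadjusted p under 0.05, and 755 had an interval within 1.5-fold. Over all 10317 genes tested in the yolk sacs, 1122 had an unadjusted p under 0.05, and 8867 (85.9%) had an interval within 1.5-fold. Minus-strand tRNA genes were among the genes that rose in embryos: mt-Tq had a log2 fold change of 1.96 ± 0.40 (edgeR adjusted p = 0.00256), mt-Tc of 2.55 ± 0.62 (adjusted p = 0.0106), mt-Ta of 1.80 ± 0.35 (adjusted p = 0.0016) and mt-Tp of 1.62 ± 0.36 (adjusted p = 0.00574). mt-Nd6 had 0.76 ± 0.25 (adjusted p = 0.0508). The Y RNA Rny3 rose in embryos by 3.16 ± 0.38 on the log2 scale (adjusted p = 2.43e-06).

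**Figure D5:**
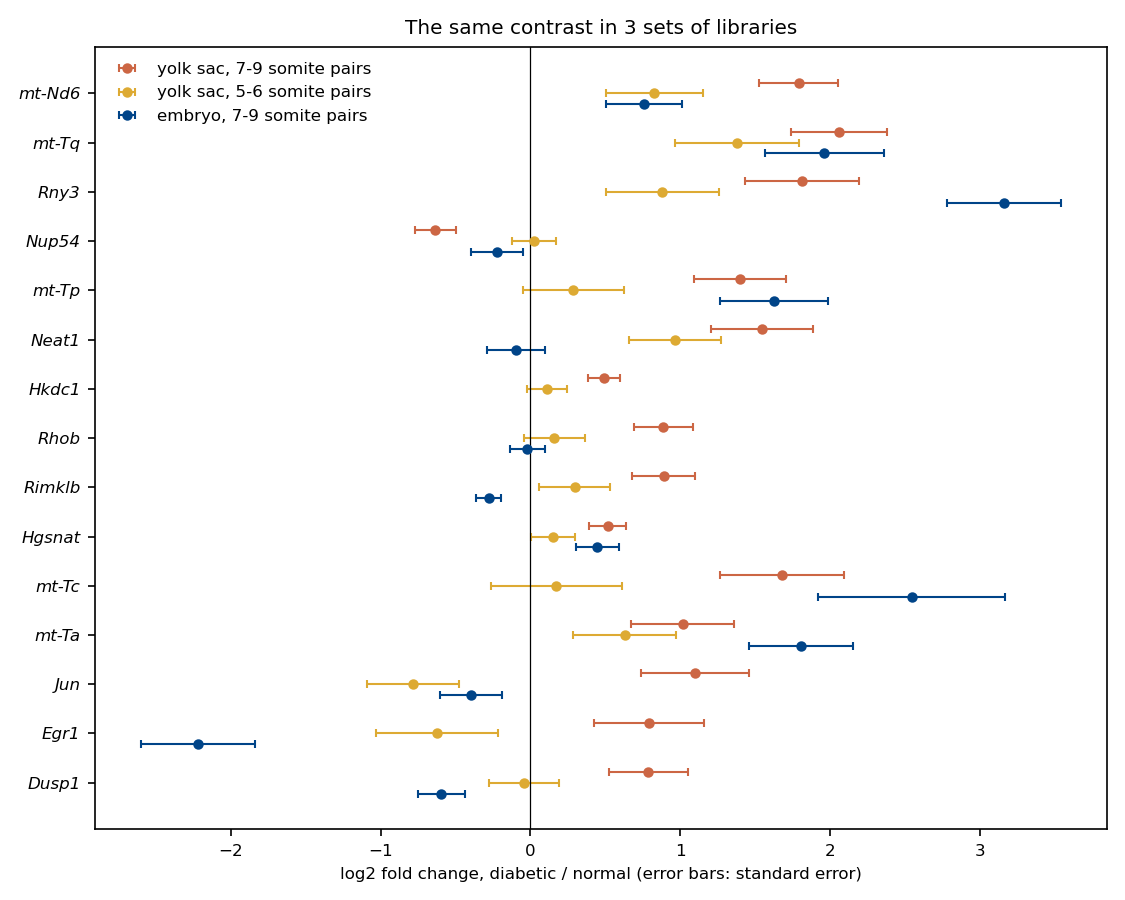
Log2 fold change (diabetic over normal, horizontal axis) with SE of 15 genes in yolk sacs with 7-9 somite pairs (orange), yolk sacs with 5-6 somite pairs (yellow) and embryos with 7-9 somite pairs (blue); a missing point was not tested in that set. The mitochondrial minus-strand genes and Rny3 are above 0 in all 3 sets, and Egr1 is at 0.79 in the older yolk sacs and at -2.22 in the embryos.

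The interaction of tissue and diabetes at 7 to 9 somite pairs, tested in edgeR over 64 libraries, was called for 45 of 11577 genes (0.389%), 22 with a higher and 23 with a lower log2 fold change in yolk sac than in embryo. With the conceptus as a block, limma called 102 genes, 44 of the 45 among them. Each yolk sac was there paired with the embryo of the same name. Without library D28M36C edgeR called 116. Of the 45, 37 were called in the embryos alone and 0 in the yolk sacs alone. The immediate early genes Egr1 and Dusp1 were among them, with differences between yolk sac and embryo of 3.02 ± 0.56 (SE, adjusted p = 0.00378) and 1.39 ± 0.32 (adjusted p = 0.0289). Rimklb, at 0.89 in yolk sac and -0.28 in embryo, differed by 1.16 ± 0.21 (adjusted p = 0.00378). Histone genes were on the other side. Hist1h2bc differed by -1.38 ± 0.26, Hist1h4n by -1.73 ± 0.36 and Hist2h2ac by -1.44 ± 0.33, with edgeR adjusted p of 0.00406, 0.0132 and 0.0248. For mt-Nd6 the difference between tissues was 1.04 ± 0.38 and not called (adjusted p = 0.134), and 83.4% of genes had an interval of the difference within 2-fold.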

How the data were processed

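Yolk sacs of single concepti were lysed for total RNA and sequenced as 3′ mRNA libraries with UMIs (QuantSeq forward kit). The deposited values are whole-number counts of UMI-collapsed reads per gene, which the authors made with STAR and HTSeq on genome build mm10. Tool versions and the strand setting are not given in the sources used here. A 3′ library counts 1 end per transcript, so counts are not scaled by length, and overlapping genes on opposite strands may share reads. Of 47643 genes in the deposited table, 21592 carried a symbol, and 25646 others were named from GENCODE M21, which also gave the positions and, with the GRCm38 genome, the sequences.

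Litters were read from the names and stages from the embryo labels. The members, gene lists and tests were chosen with earlier results of these data known. Genes were tested with edgeR 4.0.16 in R 4.3.3 (TMM scaling, filterByExpr with a minimum count of 10, quasi-likelihood F test, Benjamini-Hochberg adjustment, called at an adjusted p under 0.05) in the 32 libraries alone. The difference between stages or tissues was an interaction term in the same model over both sets. Confidence intervals at 95% were taken from the fitted log2 fold change and its standard error. Litter means of log2 (normalized count + 1) were compared by exact permutation, two-sided. Alternatives were DESeq2 1.42.0, limma 3.58.1 voom with litter as a random block, other filters and scalings, covariates, summed litters and left-out litters. Scripts were tested on simulated data. Total counts were 1017901 to 3122678 per library, and the intervals by expression level describe the precision. Their median half-width on the log2 scale was 0.39 for genes under 20 normalized counts. It was 0.22 between 100 and 200 and 0.23 at 1000 or more. Where an embryo and a yolk sac share a number they were taken as 1 conceptus. The interaction of tissue and diabetes was fitted with and without the conceptus as a block. The pairing comes from the names, and the sex labels of the pair N28M07E differ, with a female yolk sac and a male embryo. The stage of that yolk sac was read from that embryo. Without it, edgeR called mt-Nd6 and mt-Tq and no other gene in the yolk sacs. Each embryo's departure from its group mean was correlated with that of its yolk sac, and over 32 concepti the coefficient ran from -0.342 to 0.385 (median 0.0436), with 14 over 0.1. Littermates share a dam, and nothing in the labels says more about how samples were handled together.

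Named were called genes, the list members with the highest mean count or a log2 fold change furthest from 0, the 10 genes with the smallest p and the 10 with the highest mean. Other list members at an unadjusted p under 0.05, the remaining mitochondrial genes, Prl8a2 and Dusp1 were named after their values were seen. The values of 1 list member are not reported here.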

Additional observations from a re-analysis of the deposited data

Results flagged for a closer look

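Between yolk sacs and embryos of the same concepti with 7 to 9 somite pairs, the effect of diabetes differed for 45 genes by the interaction term in edgeR, and the 10 with the smallest p are given as values. In yolk sac the log2 fold change exceeded that in embryo by 1.16 for Rimklb, 3.02 for Egr1, 1.56 for Zfat, 0.84 for Peli2 and 0.97 for Pdzrn3. The difference (yolk sac minus embryo) was -1.84 for Tmem245, -1.38 for Hist1h2bc, -1.72 for Gm23639, -1.73 for Hist1h4n and -0.70 for Fcf1. Adjusted p ranged from 0.00378 for Rimklb to 0.0177 for Fcf1 (edgeR).

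None of the 10 was called in the yolk sacs alone, where edgeR adjusted p ranged from 0.131 for Rimklb to 0.91 for Hist1h2bc, and 9 were called in the embryos alone. Zfat was not tested in the embryos alone. Egr1, an immediate early transcription factor, was at 0.79 in yolk sac and -2.22 in embryo. Tmem245 was at 0.44 and 2.28. The histone genes Hist1h2bc and Hist1h4n were at 0.06 and -0.63 in yolk sac and at 1.45 and 1.10 in embryo. The values of 1 diabetic yolk sac library, D28M36C, entered each of these differences. Without it 116 genes were called for the interaction, among them all of the 45.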

How the results depend on the processing

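Against 2 called genes, DESeq2 called 17, edgeR without the low-count filter 25, with a mean count of at least 10 instead of the filter 11, and with all 8 groups in 1 fit 19. With litter as a random block 1 gene was called, with counts summed per litter 0, among names with 28 0 and among concepti with 8 somite pairs 0. Leaving out 1 litter at a time gave 0 to 28 calls. The lists with a called member, 1 in the report, numbered 5 with DESeq2, 4 without the filter, 3 with the mean count, 0 with summed litters, 5 with all groups in 1 fit, 0 among names with 28, 2 among names with 24 (1 diabetic litter), 0 among concepti with 8 somite pairs and 0 to 5 when 1 litter was left out. The 8867 genes with an interval within 1.5-fold were 3513 among names with 24 and 4174 among concepti with 8 somite pairs. The 45 genes called for the interaction of tissue and diabetes were 22 without the filter, 77 with the name number as a covariate, 219 with DESeq2 and, in an alternative chosen after seeing the data, 116 without library D28M36C. With the conceptus as replicate block, pairing embryo and yolk sac, there were 102, of which 44 were among the 45. Diabetic and normal yolk sacs share no dam, so no paired analysis was possible because the comparison itself has no pairs.

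The cause of these shifts was not tested. Of 7371 values of named genes under the alternatives, 7320 kept their side of the threshold and, where called, their direction. Another 38 passed the threshold where the reported test did not, 13 lost it (mt-Nd6 and mt-Tq) and 0 called values reversed. Only mt-Nd6 and mt-Tq were called in the reported test, so only their values could lose the threshold. Of 30 alternatives, mt-Nd6 was called in 24 and mt-Tq in 23. Calls from fewer libraries have wider intervals: within 2-fold lay 97% without litter D24M15, 95.8% among names with 28, 83.9% with 8 somite pairs and 78% among names with 24. Depth limits genes with low counts: without the filter 50.3% of 24871 intervals lay within 2-fold.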

Other observations

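Without the filter on low counts edgeR called 25 genes, of which 24 were higher in diabetic yolk sacs. Some of them had too few counts for the main comparison, and those named here were chosen after their values were seen. Prl8a2, a decidual prolactin, had 0 to 34 normalized counts (median 2.99) in normal and 0 to 658 (median 5.65) in diabetic yolk sacs. Its values above the normal range were all of litter D24M15, whose 7 libraries included 1 at 0, and its litter mean there was 154. The vault RNA Vaultrc5 had 0 to 6.10 (median 1.63) in normal and 0.99 to 96.4 (median 6.62) in diabetic yolk sacs. All 6 diabetic litter means of Vaultrc5 (3.71 to 30.1) were above all 7 normal ones (0.832 to 3.44). The highest was that of D24M15, and the other diabetic litter means were at most 6.50. The spliceosomal RNA Rnu11 had 0.833 to 6.81 (median 2.85) in normal and 0 to 156 (median 9.67) in diabetic yolk sacs. Mgp, a matrix protein that restrains calcification, was at 0 in 13 of 16 normal and 6 of 16 diabetic libraries, with a highest diabetic value of 53.4. The protease inhibitor A2m had 0 to 10.3 (median 3.44) in normal and 2.62 to 171 (median 9.77) in diabetic yolk sacs.

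By class of transcript, all 11 tested mitochondrial tRNAs had a log2 fold change above 0, as had 5547 of all 10317 genes. The 5 with an unadjusted p under 0.05 were the minus-strand tRNAs described above. The plus-strand tRNAs had unadjusted edgeR p from 0.061 to 0.81. Of 8 small nucleolar RNAs, 3 were higher and 3 lower at an unadjusted p under 0.05, with log2 fold changes from -0.74 to 0.62. Over all genes 6.26% were higher and 4.61% lower at that threshold.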
